A study of Homo sapiens with 24 samples.

Results

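Cultures of HEK293T, an established human line derived from embryonic kidney, were given an siRNA against *FMR4* and profiled on microarrays 6 h and 24 h later. The 3 arrays labelled FMR4 siRNA at 24 h were compared with the 3 labelled FMR4 siRNA at 6 h, which are 6 of the 24 arrays in the series, across 18395 genes. *FMR4* is a long noncoding RNA transcribed antisense to *FMR1*, the gene silenced in fragile X syndrome. The cells were plated and transfected on the same day, with 40 nM siRNA and Lipofectamine RNAiMAX. Cells given a control siRNA (CTRL siRNA) with the same reagent and dose, and cells given 0.5 μg pcDNA3.1 with or without *FMR4* with Lipofectamine 2000CD, served as references for the change over time, with 3 arrays at each time. Each array holds 1 biological replicate, pooled from 3 technical ones, so each p-value measures the spread between pooled samples. None of the 24 arrays holds untransfected cells, so time after transfection, time since plating and time in culture cannot be told apart. No probe set is annotated to *FMR4*, and the extent of its knockdown was not read from these arrays. The RNA is that of whole cultures, in which fewer cells of a kind and less RNA per cell cannot be told apart.

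A transfected cell can meet several programmes over the first day, and whether any acted here was not tested. Addition of reagent, or a change of medium where one is made, can engage growth factor signalling. It acts through the ERK kinase cascade and through the actin-regulated transcription factor SRF and the coactivator YAP. These pathways switch on immediate-early, feedback and cytoskeletal genes within hours and let them decline afterwards. As medium is used up, shortage of amino acids raises translation of the transcription factor ATF4, whose targets import and make amino acids and charge tRNAs. Load on the endoplasmic reticulum engages the unfolded protein response, which raises chaperones and degradation factors through XBP1, ATF6 and ATF4.

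Values are log2 expression levels. Genes were called as higher or lower at 24 h where the adjusted p was under 0.05 (limma, 1 mean per condition fitted to all 24 arrays, Benjamini-Hochberg adjustment), and changes are log2 differences, 24 h minus 6 h. All 8 markers chosen for HEK293T, among them vimentin (*VIM*), N-cadherin (*CDH2*) and the neurofilament gene *NEFL*, had mean levels over the 6 arrays of 7.40 to 12.2, above 5.997, the upper quartile of 409 olfactory receptor and keratin-associated protein genes that are mostly silent in such cells. Of 11 markers of other cell types, 7 also lay above that line, at most at 7.37 (*GFAP*), and *PTPRC*, *PECAM1*, *ALB* and *DCN* lay below it. None of the 11 passed the limma test over time (2 at an unadjusted p under 0.05, both lower).

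FMR4 siRNA 6 h replicate 3 stood apart from its replicates. The SD over genes of its difference from the mean of the other two was 0.274, against 0.214 for replicate 1, 0.162 for replicate 2 and at most 0.159 on the other arrays. Replicates 1 and 2 differed from each other by an SD of 0.175, and replicate 3 differed from them by 0.310 and 0.264. Within the CTRL siRNA 6 h arrays the same SD was 0.140 to 0.159. From the CTRL siRNA 6 h mean, the SD was 0.181 for replicate 1, 0.156 for replicate 2 and 0.178 for replicate 3. Replicate 3 was thus no farther from the controls than replicate 1. From the FMR4 siRNA 24 h mean it was 0.164, 0.219 and 0.323, with replicate 1 nearest. Which of the 6 h arrays is the unusual one was not tested. Over the genes called lower at 24 h, replicate 3 lay a median of 0.12 above the CTRL siRNA 6 h mean, while replicates 1 and 2 each lay 0.12 below it. Counts are therefore given with and without replicate 3, and a gene named as rising or falling with no remark on that array was called both with and without it. The model assumes the same spread in all conditions, which these arrays did not have, so that p-values that rest on the 6 h group are less certain than the others.

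Between 6 h and 24 h, 17 of 28 ATF4 targets of the amino acid response and 10 of 20 unfolded protein response genes rose in the FMR4 siRNA cells, and 12 of 21 SRF and YAP targets fell. At 24 h, 2262 genes were higher (12.3% of those tested) and 805 were lower (4.38%). The counts of each gene list below stand beside these shares. Changes of at least 1.5-fold numbered 110 among the higher and 108 among the lower genes, and changes over 2-fold numbered 5 and 19. Without replicate 3, 1879 genes were higher (10.2%) and 562 were lower (3.06%), and those of at least 1.5-fold fell to 66 and 32. With and without it, 1488 genes were called higher and 412 lower in the same direction. The 3 arrays of each time did not overlap for 2618 of the 3067 called genes, against 22.4% of all genes. The calls were made from the same values, so this share is no further test. After quantile normalization 1800 genes were higher and 1196 lower, so that the share of higher calls went from 73.8% to 60.1%. A fit to the 6 FMR4 siRNA arrays alone, which uses no other group's spread, called 32 genes higher and 12 lower. In that fit 2 of the 28 ATF4 targets and 0 of the 20 unfolded protein response genes rose. Of the 21 SRF and YAP targets 1 fell. With the 12 siRNA arrays these 3 counts were 13, 5 and 5.

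The genes with the largest rises that kept the arrays of both times apart were *UNC5C*, *DDIT4*, *HBP1*, *DERL3*, *ATF3*, *GLMP*, *PLPP5*, *SLC7A11*, *LRP2* and *NRG4*. These genes and the largest falls below were named only where the arrays of both times did not overlap. Their lack of overlap is thus no further evidence. *DDIT4* (probe set 7928308) encodes REDD1, an inhibitor of the growth kinase mTORC1. Its level was 8.57, 8.08 and 7.90 at 6 h and 9.39, 9.57 and 9.44 at 24 h. Every 24 h array was above every 6 h array, and replicate 3 was the lowest. The change was 1.29 (SE 0.132, 2.44-fold, adjusted p = 2.82e-06), and 1.14 without replicate 3 (adjusted p = 2e-05). *HBP1* (probe set 8135392), a transcriptional repressor that restrains cell cycle entry, read 8.27, 8.04 and 7.74 at 6 h and 9.15, 9.42 and 9.11 at 24 h. The change was 1.21 (SE 0.113, adjusted p = 1.68e-06), or 1.07 without replicate 3. *ATF3* (probe set 7909610), a stress-induced transcription factor, read 7.91, 7.72 and 7.77 at 6 h and 8.60, 8.98 and 9.06 at 24 h. Here replicate 3 lay between its replicates, and the change was 1.08 with it and 1.07 without it (adjusted p = 0.000166 and 0.000836).

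**Figure D1:**
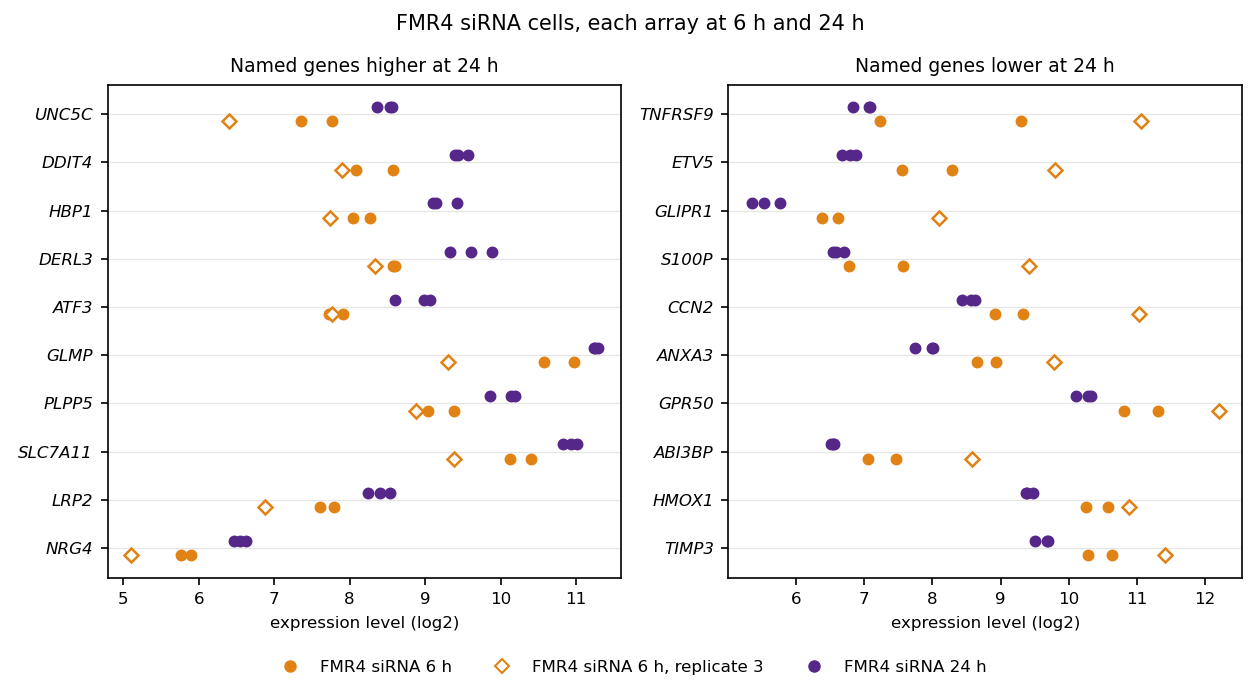
Expression level (log2, horizontal axis) of the 10 largest rises and 10 largest falls by the naming rule on each FMR4 siRNA array, at 6 h (orange) and 24 h (purple). The open diamond is 6 h replicate 3, which is the array farthest from the 24 h arrays for all 10 falls and for every rise but *ATF3*.

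The endoplasmic reticulum and lysosome figured among the other rises. *DERL3*, a member of the derlin family that passes misfolded proteins to degradation, read 8.57, 8.60 and 8.33 at 6 h and 9.33, 9.61 and 9.89 at 24 h. It rose by 1.11, or 1.02 without replicate 3, and all 24 h arrays were above all 6 h arrays. *GLMP*, a lysosomal membrane protein, read 10.98, 10.57 and 9.30 at 6 h and 11.24, 11.25 and 11.29 at 24 h, with replicate 3 far below the others. Its change was 0.98, and 0.49 without that array (adjusted p = 0.0121). *SLC7A11*, the cystine importer, rose by 0.96 (0.67 without replicate 3), and *PLPP5*, a lipid phosphatase, by 0.96 (0.86). *UNC5C*, a netrin receptor, read 7.77, 7.35 and 6.40 at 6 h and 8.53, 8.56 and 8.36 at 24 h, a rise of 1.31, or 0.92 without replicate 3. *LRP2*, the endocytic receptor megalin, and *NRG4*, a ligand of ERBB4, each rose by 0.96, or by 0.69 and 0.71 without replicate 3.

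The gene with the lowest p of all, *MBOAT1* (probe set 8124166), a lysophospholipid acyltransferase, was looked at after its values were seen. Its level was 8.66, 8.33 and 8.50 at 6 h and 9.50, 9.54 and 9.32 at 24 h. The groups were far apart with replicate 3 in the middle of its group, and the change was 0.96 with and without it (SE 0.077, adjusted p = 4e-07 with it).

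With all arrays the named falls ran from −1.15 to −2.20, and the named rises from 0.96 to 1.31. Without replicate 3, 5 genes rose and 5 fell by over 2-fold. *TNFRSF9* (probe set 7912145), the costimulatory receptor 4-1BB, read 7.23, 9.30 and 11.06 at 6 h and 6.84, 7.07 and 7.09 at 24 h. Every 6 h array was above the 24 h arrays, but they were widely spread, and replicate 1 was close to the 24 h level. The fall was −2.20 (SE 0.497, 4.59-fold, adjusted p = 0.00416) and −1.27 without replicate 3 (adjusted p = 0.0165). The CTRL siRNA 6 h arrays read 9.50, 9.76 and 10.53, between replicates 2 and 3 of the FMR4 siRNA cells. *ETV5* (probe set 8092578), an ETS transcription factor induced by ERK, read 7.55, 8.29 and 9.80 at 6 h and 6.67, 6.88 and 6.79 at 24 h. The arrays did not overlap, and its change was −1.77 (SE 0.316, adjusted p = 0.000641), or −1.14 without replicate 3 (adjusted p = 0.00052). The CTRL siRNA 6 h arrays read 8.99, 8.77 and 9.42, again between replicates 2 and 3.

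*HMOX1* (probe set 8072678), heme oxygenase 1, was the most even of the falls at 6 h. It read 10.57, 10.26 and 10.89 at 6 h and 9.39, 9.48 and 9.37 at 24 h, a change of −1.16 (SE 0.140, adjusted p = 1.57e-05) that was also called without replicate 3 (adjusted p = 9.75e-05). The calcium-binding protein *S100P* read 6.78, 7.57 and 9.42 at 6 h and 6.59, 6.54 and 6.70 at 24 h. Its replicate 1 nearly met the 24 h arrays, and its change went from −1.32 to −0.57 without replicate 3 (adjusted p = 0.0133 and 0.0319). *CCN2*, the matricellular protein CTGF and a YAP target, went from −1.22 to −0.58 (adjusted p = 0.00837 and 0.0179). *GLIPR1*, a secreted cysteine-rich protein, changed by −1.49 (−0.96), *ANXA3*, an annexin, by −1.21 (−0.88), *GPR50*, a receptor related to those for melatonin, by −1.20 (−0.82), *ABI3BP*, a matrix protein, by −1.17 (−0.73) and *TIMP3*, the matrix metalloproteinase inhibitor, by −1.15 (−0.84), with the value without replicate 3 in parentheses. All 20 named rises and falls kept their direction and their call without replicate 3, and *DDIT4*, *HBP1*, *DERL3*, *ATF3*, *PLPP5* and *HMOX1* also passed in the fit to the 6 FMR4 siRNA arrays alone. Over the 805 genes called lower, replicate 3 was a median of 0.22 above the mean of replicates 1 and 2, and was the farthest of the 6 h arrays from 24 h in 75.5%. Over the 2262 called higher the median was −0.12 and the share 55.8%.

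Targets of SRF and YAP had the lowest median change of all gene lists. Of 21 measured members 12 fell, the median change was −0.29 against 0.01 over all genes, and none rose with limma (1 at an unadjusted p under 0.05). Without replicate 3, 9 fell and 1 rose, and the median was −0.20. *VCL*, the adhesion protein vinculin, read 10.93, 11.15 and 11.49 at 6 h and 10.26, 10.25 and 10.14 at 24 h. Its groups did not overlap, and it changed by −0.97 (SE 0.095, adjusted p = 2.02e-06), or −0.82 without replicate 3. *CNN2*, calponin 2, changed by −0.70 (−0.64 without replicate 3), *TPM4* and *TPM1*, the tropomyosins, by −0.60 and −0.59 (−0.47 and −0.43), and *SRF* itself by −0.48 (−0.25). The actin genes *ACTG1* and *ACTB* changed by −0.25 and −0.16, and *ACTB* was not called without replicate 3 (adjusted p = 0.168), nor were *TAGLN*, *CCN1* and *FHL2*. *THBS1*, thrombospondin 1, read 5.99, 7.13 and 8.45 at 6 h and 6.01, 5.82 and 5.91 at 24 h. Replicate 1 lay within the 24 h range, and its change was −1.28 (adjusted p = 0.00829), or −0.65 without replicate 3 (adjusted p = 0.0321). Members beyond the first 3 of the list were named after their values were seen.

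The promoters of these genes were searched for the CArG box, the site that SRF binds. RefSeq (GRCh38.p14) gives a promoter of 250 bases before to 50 after the start for 17 of the 21 genes, and 5 of the 17 (29.4%) hold a CArG box on either strand, against 174 of 14240 promoters of all genes (1.22%). All 5 genes were among the 9 called lower that have a promoter in the table. The motif was chosen after the values were seen, and a match describes the sequence only. The list was made of genes taken as SRF and YAP targets. A share of such sites above that of all promoters therefore says nothing of the changes here. The sites are shown because they sit in genes that fell together. Each line runs 5′ to 3′ on the strand of the gene, with the CArG box in capitals.
ACTG1, chr17:81512869-81512908, minus strand: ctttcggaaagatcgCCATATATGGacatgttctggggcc
CNN2, chr19:1026504-1026543, plus strand: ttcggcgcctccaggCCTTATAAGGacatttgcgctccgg
FHL2, chr2:105438590-105438629, minus strand: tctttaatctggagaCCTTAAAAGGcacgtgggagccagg
SRF, chr6:43171224-43171263, plus strand: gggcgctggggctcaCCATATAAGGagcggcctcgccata
TPM4, chr19:16067350-16067389, plus strand: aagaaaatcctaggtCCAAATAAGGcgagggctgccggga

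The box spans positions −94 to −85 from the start of *ACTG1*, −89 to −80 from that of *CNN2*, −101 to −92 from that of *FHL2*, −30 to −21 from that of *SRF* and −173 to −164 from that of *TPM4*, and *SRF* has a further one at −10 to −1. The letters GGAATG, the core of the site that TEAD factors bind with YAP, stand in 5 of the 17 promoters (29.4%) on either strand, against 11.6% of all promoters, and those of *CCN2*, *THBS1* and *VCL* are among them. That of *ANKRD1*, which was not called by limma (0.36, adjusted p = 0.505), is too. Among the 9 called genes with a promoter, 3 hold it (33.3%).

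Calls among ERK feedback and immediate-early genes changed with replicate 3. Of 16 ERK feedback genes 5 fell and 1 rose, with a median of −0.21, and without replicate 3, 3 fell and 3 rose, with a median of −0.10. Beside *ETV5*, its relative *ETV4* changed by −0.34 (−0.37 without replicate 3), and the Eph receptor *EPHA4* rose by 0.47 (0.53). The median level of these 16 genes was 7.90, 8.36 and 8.76 on the FMR4 siRNA 6 h arrays and 7.78, 7.75 and 7.91 on the 24 h arrays. It was 8.59 to 8.65 on the CTRL siRNA 6 h arrays and 7.52 to 7.66 on the CTRL siRNA 24 h arrays. Replicate 1 at 6 h thus lay within the FMR4 siRNA 24 h range, and replicate 3 lay above all CTRL siRNA 6 h arrays. Of 25 immediate-early genes, *ATF3* rose, *KLF10* (−0.43) and *FOSL1* (−0.28) fell, and the median moved from −0.12 to 0.03 without replicate 3. There 2 rose and 1 fell, and *KLF10* and *FOSL1* were not called (adjusted p = 0.172 and 0.144). *EGR1*, named after its values were seen, read 9.33, 9.88 and 11.13 at 6 h and 9.40, 9.48 and 9.66 at 24 h, groups that overlapped, and did not pass (adjusted p = 0.11).

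**Figure D2:**
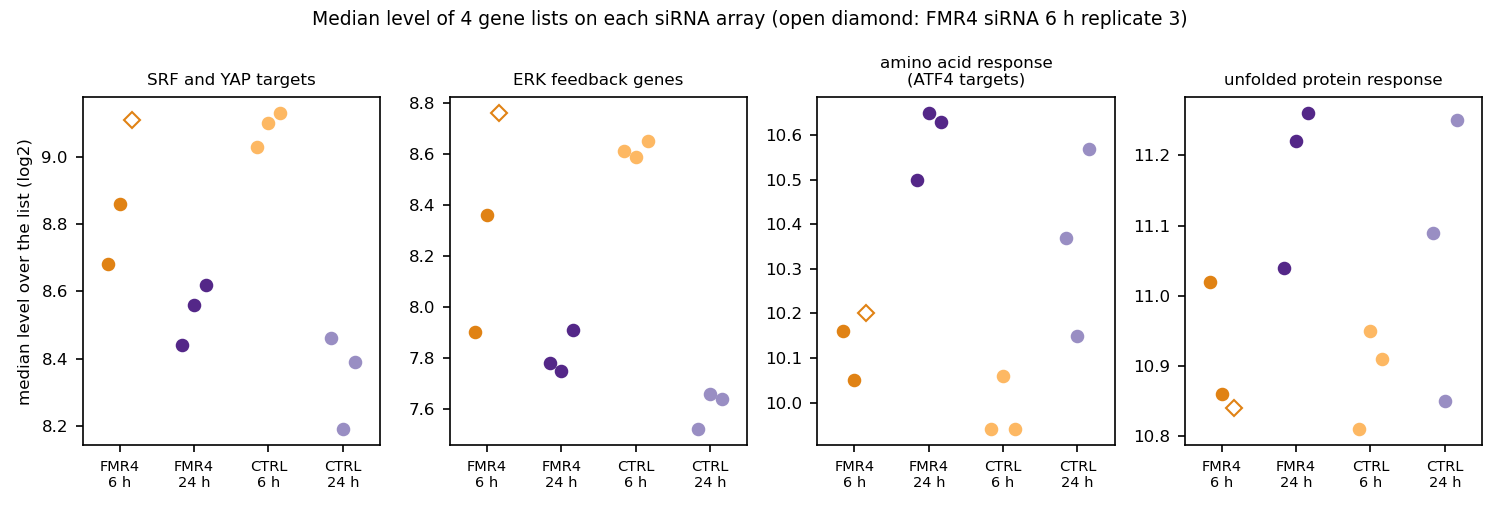
Median log2 level over the members of 4 gene lists (vertical axis) on each of the 3 arrays of FMR4 siRNA and CTRL siRNA at 6 h and 24 h. The ERK feedback list runs from 7.90 to 8.76 on the FMR4 siRNA 6 h arrays, with replicate 3 (open diamond) highest, while the ATF4 list is between 10.05 and 10.20 at 6 h and between 10.50 and 10.65 at 24 h.

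Of 21 Notch, Wnt and TGF-beta/BMP targets, *SKIL*, a SMAD corepressor, rose by 0.47 with and without replicate 3 along with 1 further gene, and *ID1* (−0.74), *NKD1* (−0.29) and 1 further gene fell. After quantile normalization 1 rose and 7 fell. Without replicate 3, 2 rose and 1 fell, *ID1* kept its call at −0.38 and *NKD1* did not (adjusted p = 0.0516). Of 19 NF-kappaB targets *TNF* (−0.23) and *RELB* (−0.22) fell, of which *RELB* was called without replicate 3. *RELB* lost its call without 6 h replicate 1 or 2. Of 37 interferon-stimulated genes 6 rose, among them *HERC5* (0.45), *RIGI* (0.37) and *IFI35* (0.32), and the list median was −0.00. The higher calls of that list lay near the 12.3% called higher over all genes. Without replicate 3, 2 of the 37 rose and 1 fell, and *RIGI* was not called (adjusted p = 0.0817). Of 16 circadian clock genes *BMAL1* (0.36), *BHLHE41* (0.29) and *PER1* (0.26) rose, while 4 rose without replicate 3 and *BHLHE41* was then not called (adjusted p = 0.056). After quantile normalization 1 of the 16 rose, and neither *BHLHE41* nor *PER1* was called.

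Targets of ATF4 in the amino acid response had the highest median change of all gene lists. Of 28 genes 17 rose and 2 fell, with a median of 0.31, and without replicate 3, 17 rose, with a median of 0.34. Of the 19 calls 15 were shared by both. *SESN2* (probe set 7899436), sestrin 2, an amino acid sensor that restrains mTORC1, read 9.75, 9.47 and 9.61 at 6 h and 10.47, 10.58 and 10.62 at 24 h. The arrays of the 2 times were far apart, and the change was 0.94 (SE 0.091, adjusted p = 2.02e-06), or 0.95 without replicate 3. *CHAC1*, which degrades glutathione, had a mean of 8.28 ± 0.32 (SD, n = 3) at 6 h and 9.07 ± 0.06 (SD, n = 3) at 24 h without overlap, a rise of 0.78 (0.70 without replicate 3). *TRIB3*, a pseudokinase, rose by 0.67, *STC2*, stanniocalcin 2, by 0.57, the amino acid transporters *SLC38A2* and *SLC3A2* by 0.46 and 0.41, the serine and proline synthesis enzymes *SHMT2* and *PYCR1* by 0.48 and 0.45, and *ATF4* itself by 0.18. Each of these 7 kept its call without replicate 3. The 2 that fell, *ATF5* (−0.55) and *NUPR1* (−0.70), are transcription regulators, and neither was called without replicate 3 (adjusted p = 0.111 and 0.139). *ASNS*, asparagine synthetase, the best known ATF4 target, did not pass. The letters TGATGNAA, the amino acid response element, stand on either strand in 4 of 22 promoters of the list (18.2%), against 2.54% of all promoters, and among the 14 of these genes that were called, in 2. The motif was also chosen after the values were seen. The list was made of genes taken as ATF4 targets, so its share too says nothing of the changes here.

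Of 19 cytosolic aminoacyl-tRNA synthetases 9 rose, with a median of 0.16, and 7 rose without replicate 3. *CARS1* (0.54), *VARS1* (0.36) and *MARS1* (0.32), for cysteine, valine and methionine, had the lowest p, and all 3 kept the call. Of 20 unfolded protein response genes 10 rose, with a median of 0.20, and 6 rose without replicate 3, with a median of 0.21. *DNAJB9*, a cochaperone of BiP, read 8.70, 8.61 and 9.12 at 6 h and 9.43, 9.76 and 9.53 at 24 h, a rise of 0.77 that grew to 0.92 without replicate 3, the highest of its 6 h arrays. *EDEM1*, which sends misfolded glycoproteins to degradation, rose by 0.47 (0.54), *HYOU1*, a chaperone, by 0.35 (0.35) and *DDIT3*, the transcription factor CHOP, by 0.50 (0.59). *HSPA5*, BiP itself, rose by 0.23 and was not called without replicate 3 (adjusted p = 0.0991). In contrast, of 20 cytosolic heat shock genes and chaperones *DNAJB1* (−0.30), *HSPH1* (−0.19) and *CHORDC1* (−0.24) fell, and of these *CHORDC1* was called without replicate 3, when 1 gene of the list rose. *CHORDC1* lost its call on leaving out any 1 of the FMR4 siRNA 24 h arrays.

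Lipid synthesis genes rose by small amounts. Of 19 genes of sterol synthesis and uptake 8 rose (7 without replicate 3), with a median of 0.19. *MVK*, mevalonate kinase, read 8.36, 8.11 and 7.96 at 6 h and 8.59, 8.70 and 8.59 at 24 h, a rise of 0.49 (0.39). *LSS*, lanosterol synthase, rose by 0.41 (0.43), *ACAT2*, which condenses acetyl-CoA units, by 0.46 (0.31) and *SREBF2*, which encodes the regulator of the pathway, by 0.26 (0.28). *INSIG1*, the sterol-sensing partner of SREBP, rose by 0.34 and was not called without replicate 3 (adjusted p = 0.0824). Of 11 fatty acid synthesis genes 7 rose and 1 fell (5 rose without replicate 3). *ACSS2*, acetyl-CoA synthetase, rose by 0.55, *FASN*, fatty acid synthase, by 0.34 and *ELOVL6*, an elongase, by 0.37, and all 3 kept the call. Of 34 glycolysis and hypoxia genes 6 rose and 1 fell (6 rose without replicate 3, and 5 rose and 3 fell after quantile normalization), led by *PFKM* (0.55), *BNIP3L* (0.28) and *HK1* (0.33). The higher calls of that list stand beside 12.3% called higher over all genes. Of 19 NRF2 targets and metallothioneins 2 rose and 2 fell (1 and 2 without replicate 3), namely *SLC7A11* and *HMOX1* above, *GCLM* (−0.52), a subunit of the glutathione synthesis enzyme, and 1 further gene. Of 24 lysosome and autophagy genes 10 rose and 2 fell (5 and 2 without replicate 3). *GABARAPL1* and *WIPI1*, of autophagosome formation, each rose by 0.46, and *NEU1*, the lysosomal sialidase, fell by 0.50.

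**Figure D3:**
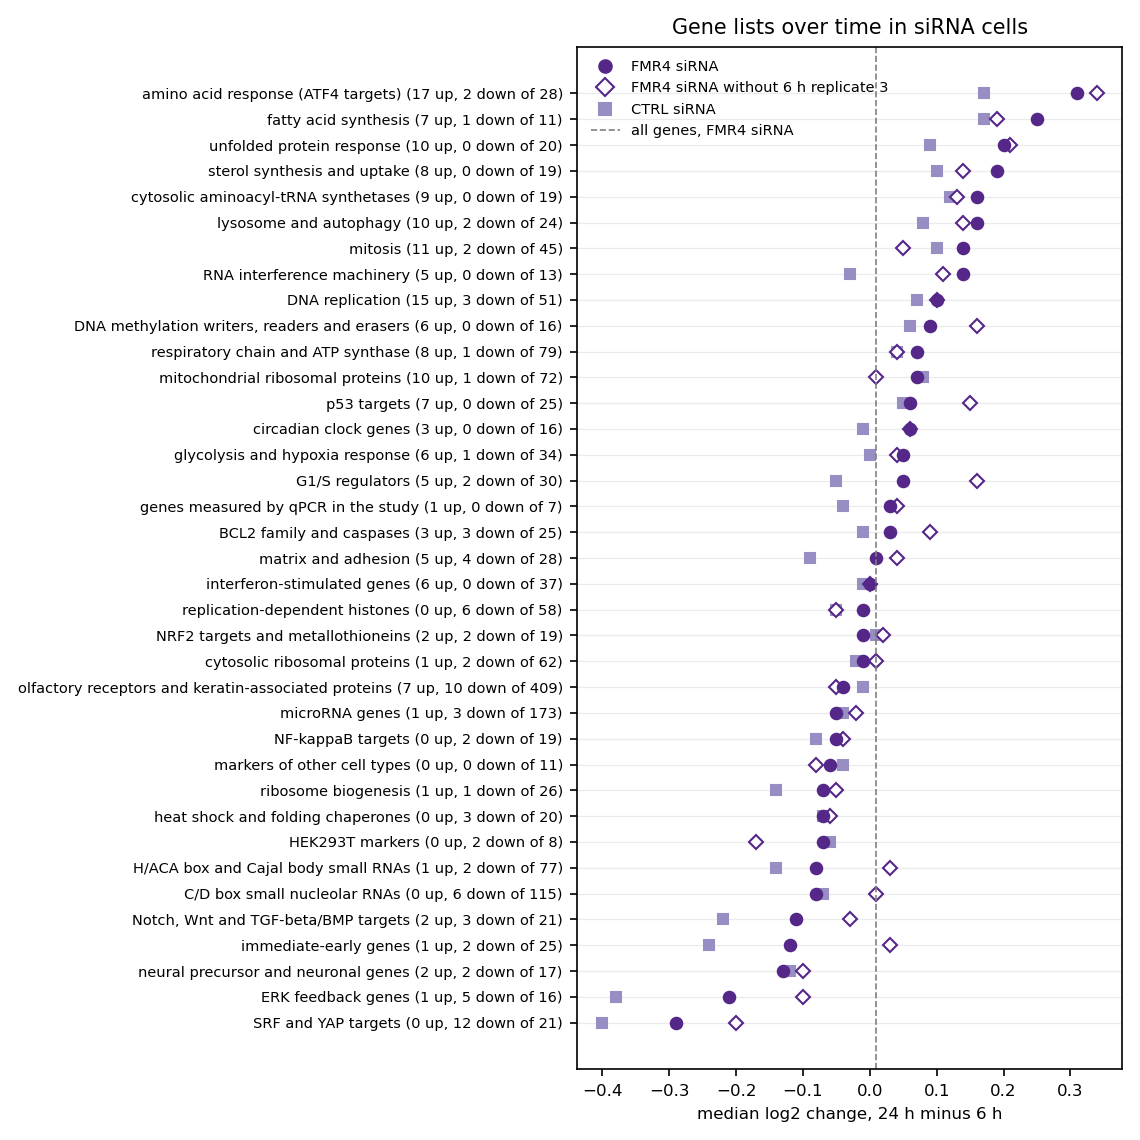
Median log2 change from 6 h to 24 h (horizontal axis) of each gene list with at least 5 measured members, in FMR4 siRNA cells (circles), the same without 6 h replicate 3 (open diamonds) and CTRL siRNA cells (squares), with the all-gene median of 0.01 dashed. Labels give the members called higher and lower in FMR4 siRNA cells. The ATF4 list is highest at 0.31 and the SRF and YAP list lowest at −0.29.

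Of 51 DNA replication genes 15 rose and 3 fell, and 12 rose and 2 fell without replicate 3. *CDC45* and *MCM5*, of the replicative helicase, rose by 0.64 and 0.45 (0.45 and 0.35), and *DTL*, of the ubiquitin ligase that acts on replication licensing, by 0.33 (0.31), while *DUT* and *RPA1*, described below with the genes that differed from CTRL siRNA, fell. Of 45 mitosis genes 11 rose and 2 fell, among them *SPC24* (0.55), of the kinetochore, *CDC25C* (0.44), the phosphatase that opens mitosis, and *NEK2* (0.41), a centrosomal kinase, and 8 rose and 1 fell without replicate 3. Of 30 G1/S regulators 5 rose and 2 fell (7 and 1 without replicate 3, 5 and 5 after quantile normalization). Over all genes 12.3% were called higher and 4.38% lower. *RBL2* and *RB1*, of the retinoblastoma family, rose by 0.40 and 0.32, and *SKP2*, the F-box protein that degrades p27, read 12.23, 12.23 and 12.11 at 6 h and 11.86, 11.95 and 11.81 at 24 h, a change of −0.32 with no overlap. Of 25 p53 targets 7 rose (9 without replicate 3), among them *SESN2* and its paralog *SESN1* (0.27) and the DNA damage sensor *DDB2* (0.43). After quantile normalization 5 of these targets rose and 1 fell. Of 25 BCL2 family and caspase genes 3 rose and 3 fell (2 rose without replicate 3, and 2 rose and 4 fell after quantile normalization), with *BAK1* (0.39) and *CASP10* (0.36) higher and *BCL2L1* (−0.41), which encodes the survival protein BCL-xL, lower. *BAK1* alone of these 3 was called without replicate 3. The list median was 0.03, or −0.02 after quantile normalization. The higher calls of this list lay near the share over all genes.

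Of 28 matrix and adhesion genes 5 rose and 4 fell (4 and 4 without replicate 3), with a median of 0.01. Over all genes 12.3% were called higher and 4.38% lower. *NID1*, nidogen, changed by −0.63 (−0.51), *ZYX*, zyxin, by −0.82 (−0.60) and *FAT1*, an atypical cadherin, by −0.70 (−0.55). Of 17 neural genes *PAX6* (0.22) and 1 further gene rose and *NEFL* (−0.37) and *INA* (−0.35) fell, which became 1 and 2 without replicate 3, where *INA* was not called (adjusted p = 0.139). Of the HEK293T markers *NEFL* and *KRT8*, keratin 8, fell, and *KRT8* read 8.38, 8.88 and 9.72 at 6 h and 8.42, 8.31 and 8.31 at 24 h, so that its groups overlapped at replicate 1 and its change of −0.65 was not called without replicate 3 (adjusted p = 0.161). *VIM*, *CDH2*, *KRT18*, *PAX2*, *LIN28B* and *NEFM* did not pass.

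Small rises were found among genes of small RNA function and DNA methylation. Of 13 genes of the RNA interference machinery, which the siRNA itself uses, 5 rose (4 without replicate 3). After quantile normalization 5 rose and 2 fell. In CTRL siRNA cells, given the same dose, 4 of the 13 rose and 3 fell, with a median of −0.03 against 0.14 with FMR4 siRNA. *AGO1*, an Argonaute protein, read 10.52, 10.46 and 10.28 at 6 h and 10.89, 10.95 and 10.90 at 24 h, a rise of 0.50 (0.43) with no overlap. *AGO4* rose by 0.33 and *TNRC6A*, the GW182 scaffold of Argonaute, by 0.29. With CTRL siRNA *AGO1* changed by 0.42, *AGO4* by 0.32 and *TNRC6A* by −0.02. Of 16 DNA methylation genes 6 rose (4 without replicate 3, and 4 rose and 1 fell after quantile normalization). *TET1*, which oxidises methylcytosine, read 9.68, 9.70 and 9.69 at 6 h and 9.99, 10.11 and 9.99 at 24 h, a rise of 0.34 in groups that were tight and apart. *ZBTB4*, a methyl-CpG binding protein, and *MBD6*, of the family named for a methyl-CpG-binding domain, rose by 0.40 and 0.30. Of the 7 genes chosen because they had been assayed by qPCR, *FMR1* was called. It read 10.47, 10.46 and 10.46 at 6 h and 10.74, 10.75 and 10.51 at 24 h, a rise of 0.20 (SE 0.060, adjusted p = 0.0255), which missed the threshold without replicate 3 (adjusted p = 0.0521). Its call was also lost with the 12 siRNA arrays, with the replicate block and without 6 h replicate 2 or 24 h replicate 1 or 2. With CTRL siRNA *FMR1* changed by 0.08, and the difference of 0.12 did not pass by limma (adjusted p = 0.685). The difference from the plasmid change was 0.33 (limma, adjusted p = 0.00999). *MALAT1* (−0.38), *YOD1* (0.17), *RRM2* (−0.07), *GAPDH* (0.06), *GNG12* (0.03) and *MBD4* (−0.01) did not pass, of which *YOD1* passed without replicate 3 (0.23, adjusted p = 0.0249).

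Calls among ribosomal, mitochondrial and histone genes stand beside 12.3% higher and 4.38% lower over all genes (10.2% and 3.06% without replicate 3). With all arrays, the higher calls of the mitochondrial ribosomal and respiratory chain lists lay near that share. Of 62 cytosolic ribosomal proteins *RPS24* (0.21) rose and *RPS23* (−0.44) and *RPL39L* (−0.32) fell, of which *RPS23* alone was called without replicate 3. Of 72 mitochondrial ribosomal proteins 10 rose and 1 fell, which became 1 and 2 without replicate 3, and 3 and 5 after quantile normalization. Among these *MRPS14* (0.26) and *MRPL28* (0.30) rose and *MRPS35* (−0.40) fell, and *MRPL28* was not called without replicate 3 (adjusted p = 0.101). Of 79 respiratory chain and ATP synthase genes 8 rose and 1 fell (4 and 2 without replicate 3, 6 and 3 after quantile normalization), among them *UQCRC1* (0.30), *NDUFA10* (0.26) and *NDUFS1* (0.25). Of 26 ribosome biogenesis genes *BOP1* (0.22) rose and *NOP14* (−0.17) fell, and neither was called without replicate 3, while after quantile normalization 7 fell. Of 58 replication-dependent histone genes 6 fell (3 without replicate 3), led by *H2AC21* (−0.24), *H2BC3* (−0.37) and *H2AC25* (−0.39). Histone genes are near copies of each other, so that the signal of one may include others. Of 409 olfactory receptor and keratin-associated protein genes 7 rose and 10 fell (7 and 12 without replicate 3), with the keratin-associated genes *KRTAP21-2* (0.80), *KRTAP19-5* (0.63) and *KRTAP21-1* (0.57) of lowest p.

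Small RNA genes are read by probes to their precursors or hosts. Over all genes 12.3% were called higher and 4.38% lower. Of 115 C/D box small nucleolar RNAs 6 fell (5 without replicate 3), led by *SNORD14C* (−0.34), *SNORD14E* (−0.48) and *SNORD36B* (−0.32), the last of which was not called without replicate 3 (adjusted p = 0.0949). Of 77 H/ACA box and Cajal body RNAs *SNORA50A* (0.23) rose and *SNORA10* (−0.31) and *SNORA67* (−0.32) fell, which became 3 higher and 2 lower without replicate 3, and 1 and 8 after quantile normalization. Neither of 2 small nucleolar RNA host genes passed (0 at an unadjusted p under 0.05). Of 173 microRNA genes *MIR194-1* (0.31) rose and *MIRLET7F1* (−0.78), *MIR9-3* (−0.24) and *MIR423* (−0.19) fell. Without replicate 3, 2 rose and 2 fell, and *MIR9-3* and *MIR423* were not called (adjusted p = 0.0598 and 0.139). *MIRLET7F1* read 6.47, 6.96 and 7.75 at 6 h and 6.44, 6.39 and 6.00 at 24 h. Its replicate 1 nearly met the 24 h arrays, and without replicate 3 its change was −0.43 (adjusted p = 0.0636), while *MIR194-1* kept its call (0.39, adjusted p = 0.0136) at levels of 4.06 to 4.58, under that of the mostly silent genes. *MIR194-1* lost its call with the FMR4 siRNA arrays alone and with adjustment over all probe sets. It also lost it without 6 h replicate 2 or 24 h replicate 1 or 2. The array reads the genes, not the mature microRNAs, whose RefSeq sequences are given for those of the largest fall and the rise, with the seed (bases 2 to 8) in capitals.
hsa-let-7f-5p, chr9:94176353-94176374, plus strand: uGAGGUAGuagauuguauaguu
hsa-miR-194-5p, chr1:220118206-220118227, minus strand: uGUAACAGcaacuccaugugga

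Many of the genes that changed over time in FMR4 siRNA cells changed the same way in CTRL siRNA cells, which share no array with them. In CTRL siRNA cells 3413 genes changed (18.6%), 1802 higher and 1611 lower. Of the 3067 genes called in FMR4 siRNA cells, 90.4% had the same sign in CTRL siRNA cells. The same share over all genes is not given here, so 90.4% cannot be read as particular to the called genes. Called in both in the same direction were 1484, which are 48.4% of the FMR4 siRNA calls and 43.5% of the CTRL siRNA calls, and 30 were called in opposite directions. Over the 18395 genes the 2 sets of changes had a Pearson r of 0.70, or 0.45 without replicate 3, as a description over genes that are not independent. The SRF and YAP list had a median of −0.40 in CTRL siRNA cells, the ERK feedback list −0.38, the amino acid response list 0.17 and the unfolded protein response list 0.09. *DDIT4* changed there by 0.97, *HBP1* by 0.80, *TNFRSF9* by −2.91 and *ETV5* by −2.46.

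The test of the difference between the 2 siRNAs' changes called 218 genes (1.19%), 132 more positive and 86 more negative in FMR4 siRNA cells, or 129 and 141 after quantile normalization. Without replicate 3 it called 1529 (8.31%), 1149 and 380, which include all 218. Leaving out FMR4 siRNA 6 h replicate 1 instead, it called 225 (152 and 73). Of the 218 genes, 102 changed in CTRL siRNA cells and were not called in FMR4 siRNA cells, 82 changed in FMR4 siRNA cells and were not called in CTRL siRNA cells, 30 were called in both in opposite directions, 3 in both in the same direction and 1 in neither. Against the mean change of both plasmid groups, 1444 genes differed (7.85%), or 1832 without replicate 3 (9.96%), and 89 of the 218 differed in the same direction there too.

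**Figure D4:**
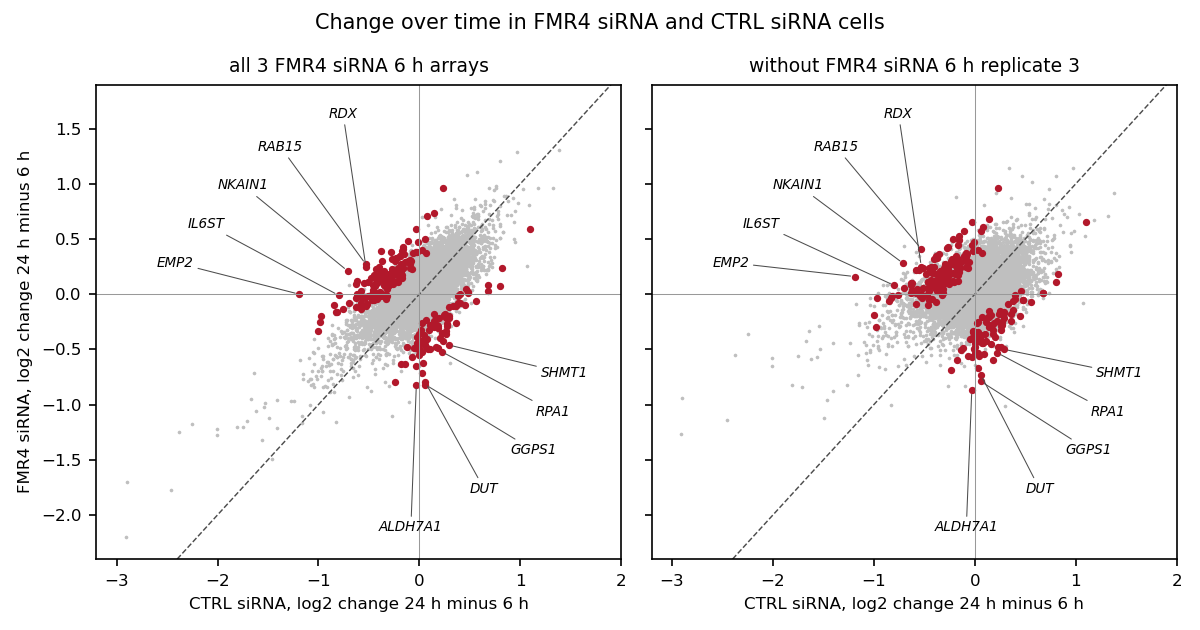
Log2 change from 6 h to 24 h in FMR4 siRNA cells (vertical axis) against CTRL siRNA cells (horizontal axis) for each of 18395 genes, with all FMR4 siRNA 6 h arrays (left) and without replicate 3 (right). The 218 genes whose changes differed with all arrays are red, the 10 named ones are labelled, and the dashed line marks equal change.

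The 5 largest positive differences were in genes that fell with CTRL siRNA and were not called lower with FMR4 siRNA. *EMP2*, a tetraspan membrane protein (probe set 7999387), read 10.39, 10.48 and 10.93 at 6 h and 10.53, 10.64 and 10.63 at 24 h with FMR4 siRNA, and 10.49, 10.37 and 10.49 at 6 h and 9.38, 9.23 and 9.17 at 24 h with CTRL siRNA. The FMR4 siRNA arrays of the 2 times overlapped (change −0.00), while every CTRL siRNA 24 h array was below every other array. The difference of the changes was 1.18 (SE 0.132, adjusted p = 4.62e-05), or 1.35 without replicate 3. *NKAIN1*, which binds a subunit of the sodium pump, had a difference of 0.92 (CTRL siRNA −0.71), *RAB15*, a GTPase of endosomal recycling, 0.80 (−0.53), and *IL6ST*, the cytokine receptor gp130, 0.79 (−0.80). *RDX*, radixin, which links actin to the membrane, rose by 0.25 with FMR4 siRNA and changed by −0.53 with CTRL siRNA, a difference of 0.77 (adjusted p = 4.62e-05). None of the 5 changes differed from the plasmid cells' by limma (2 at an unadjusted p under 0.05, adjusted p from 0.0775 to 0.554 and differences of 0.12 to 0.28). Without replicate 3, those of *EMP2*, *NKAIN1* and *RAB15* did (0.28, 0.35 and 0.38).

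The 5 largest negative differences were in genes that fell with FMR4 siRNA and were not called lower in any other transfection. *DUT*, the enzyme that removes dUTP from the nucleotide pool (probe set 7983594), read 9.22, 9.05 and 9.33 at 6 h and 8.30, 8.56 and 8.35 at 24 h with FMR4 siRNA. Its CTRL siRNA arrays lay between 9.28 and 9.38 at both times, so that the 3 FMR4 siRNA 24 h arrays were below all others. The change was −0.80 (SE 0.068, adjusted p = 6.94e-07) and the difference −0.86 (adjusted p = 4.62e-05), or −0.79 without replicate 3. *RPA1*, the large subunit of the protein that covers single-stranded DNA (probe set 8003679), read 10.31, 10.29 and 10.28 at 6 h and 9.79, 9.83 and 9.69 at 24 h with FMR4 siRNA, and rose by 0.22 with CTRL siRNA. The difference was −0.74 (SE 0.074, adjusted p = 2.36e-05) and its 6 h arrays were almost level. *GGPS1*, which makes geranylgeranyl diphosphate, changed by −0.82, *ALDH7A1*, an aldehyde dehydrogenase of lysine breakdown, by −0.82, and *SHMT1*, the cytosolic serine hydroxymethyltransferase, by −0.46, with differences of −0.88, −0.80 and −0.75. All 5 also differed from the plasmid cells' changes, by −0.82 for *GGPS1*, −0.76 for *ALDH7A1*, −0.72 for *DUT*, −0.59 for *RPA1* and −0.55 for *SHMT1*, and kept both calls without replicate 3.

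**Figure D5:**
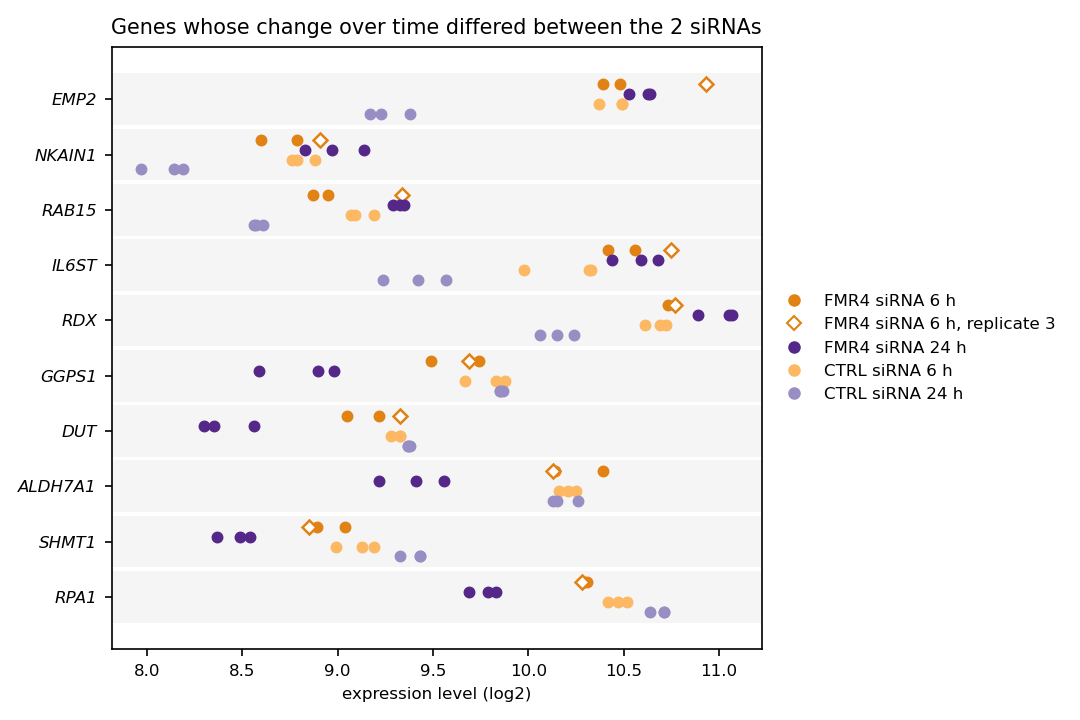
Log2 expression level (horizontal axis) of the 10 genes with the largest differences between the 2 siRNAs' changes over time, on each of the 3 FMR4 siRNA and 3 CTRL siRNA arrays at 6 h and 24 h (open diamond, FMR4 siRNA 6 h replicate 3). For the upper 5 the CTRL siRNA 24 h arrays lie lowest, and for the lower 5 the FMR4 siRNA 24 h arrays lie lowest.

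The 20 largest rises and falls were then compared with CTRL siRNA and with plasmid. Of the 20, none differed from CTRL siRNA by limma (4 had an unadjusted p under 0.05). The lowest adjusted p was 0.215 (*DERL3*, difference 0.54). Without replicate 3 the differences of *TNFRSF9* (1.64), *ETV5* (1.31), *CCN2* (1.43), *S100P* (0.99), *GPR50* (0.99), *TIMP3* (0.87), *ANXA3* (0.54) and *NRG4* (−0.61) passed. Against the plasmid cells, *HBP1* (1.10), *DERL3* (1.14), *ATF3* (1.63), *PLPP5* (1.05) and *UNC5C* (0.93) rose more, and *TNFRSF9* (−2.26), *S100P* (−1.49) and *HMOX1* (−0.68) fell more, with and without replicate 3. *ATF3* went the other way with plasmid, by −0.56 and −0.53. *DDIT4* rose by 1.25 and 1.43 with plasmid, and its difference of −0.05 did not pass. *MBOAT1* rose more with FMR4 siRNA than with CTRL siRNA, by 0.72 (adjusted p = 0.000746). *FAT1* and *NEU1* fell more, by −0.52 (adjusted p = 0.051, and 0.0195 without replicate 3) and −0.49 (adjusted p = 0.037), and *SKP2* by −0.41 (adjusted p = 0.00292).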

How the data were processed

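RNA from 24 cultures was hybridised to Affymetrix Human Gene ST arrays, which the labels give as version 1.0 and the methods as 2.0. The authors deposited log2 values after background subtraction and GC-RMA, with quality control in Affymetrix Command Console and Bioconductor. Tool versions are not given in the sources used here. The deposited log2 values (33297 probe sets) were used without further scaling. GEO's platform annotation named no gene for 12083 probe sets and several for 1754, and 25 symbols were updated through RefSeq. Of the 21214 named probe sets, the one of highest mean stood for each of 18395 genes with 1 symbol.

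limma 3.58.1 (R 4.3.3) fitted 1 mean per condition to the 24 arrays, with adjustment over the named probe sets. The contrasts were 24 h minus 6 h in FMR4 siRNA cells, the same in CTRL siRNA cells, and the difference of the first from CTRL siRNA and from the mean of both plasmid changes. The code was tested on simulated data. The number of arrays limits the precision.

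The members and lists were chosen with earlier results of these data known. Named were the 10 largest called rises and 10 largest falls whose arrays did not overlap and whose mean exceeded 5.997 in a group, the 5 largest called differences each way above that level, up to 3 called genes of lowest p per list, and the genes measured by qPCR. Other genes were named after their values were seen. Within each transfection, same-numbered arrays of the 2 times did not deviate together, so arrays were treated as unpaired. Alternatives changed the arrays fitted, moderation, weights, dim probe sets, normalization, probe set per gene, adjustment, replicate block and thresholds, or left out each array. Promoter and microRNA sequences are RefSeq's (GRCh38.p14).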

Additional observations from a re-analysis of the deposited data

Results flagged for a closer look

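The change from 6 h to 24 h differed between the FMR4 siRNA and CTRL siRNA cells in 218 genes by the limma contrast of the 2 changes. Among the 10 named, the FMR4 siRNA change exceeded the CTRL siRNA change by 1.18 for *EMP2*, 0.92 for *NKAIN1*, 0.80 for *RAB15*, 0.79 for *IL6ST* and 0.77 for *RDX* on the log2 scale. It was more negative for *GGPS1* (−0.88), *DUT* (−0.86), *ALDH7A1* (−0.80), *SHMT1* (−0.75) and *RPA1* (−0.74). All 10 were called without FMR4 siRNA 6 h replicate 3 as well. In the fit to the 12 siRNA arrays 9 of them were called, and *IL6ST* was not.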

How the results depend on the processing

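Among the genes named by rule, no call over time or between the changes reversed under an alternative, but many were lost. Of 128 changes over time, 106 lost their call with the 6 FMR4 siRNA arrays alone. Of 138 results, 35 lost theirs with the 12 siRNA arrays, among them *TNFRSF9*, *S100P*, *CCN2* and *GLMP*. Without FMR4 siRNA 6 h replicate 3, 21 of the 138 did. Genes named after their values were seen are not in these counts. List medians did change sign, that of the BCL2 family and caspases from 0.03 to −0.02 after quantile normalization and, without FMR4 siRNA 6 h replicate 3, those of the immediate-early genes (−0.12 to 0.03), NRF2 targets (−0.01 to 0.02), cytosolic ribosomal proteins (−0.01 to 0.01), C/D box (−0.08 to 0.01) and H/ACA box RNAs (−0.08 to 0.03) and small nucleolar RNA host genes (−0.06 to 0.05). The 3067 calls over time (2262 higher, 805 lower) became 44 (32 and 12) with the 6 FMR4 siRNA arrays alone, 1310 (1009 and 301) with the 12 siRNA arrays, 1541 (1203 and 338) at an adjusted p under 0.01 and 218 (110 and 108) at 1.5-fold or more. Leaving out 1 array gave 1841 (without FMR4 siRNA 24 h replicate 2) to 4493 (without 6 h replicate 1), with 1232 to 3208 higher and 553 to 1285 lower, and 1503 higher without 6 h replicate 2. Chosen after seeing the data, the FMR4 siRNA arrays alone without 6 h replicate 3 gave 577 (445 and 132). The 218 differences from CTRL siRNA (132 and 86) became 31 (15 and 16) with the 12 siRNA arrays, 983 (751 and 232) with array weights, 79 (46 and 33) at an adjusted p under 0.01 and 56 (35 and 21) at 1.5-fold. More negative ones became 141 after quantile normalization and 56 with adjustment over all probe sets. Leaving out 1 array gave 125 (without CTRL siRNA 6 h replicate 1) to 1529 (without FMR4 siRNA 6 h replicate 3), with 67 to 1149 and 48 to 380. It gave 141 without FMR4 siRNA 6 h replicate 2 or CTRL siRNA 24 h replicate 3 and 133 without CTRL siRNA 24 h replicate 2. Also chosen after seeing the data, the siRNA arrays alone without FMR4 siRNA 6 h replicate 3 gave 590 (473 and 117). The 1444 differences from the plasmid change became 3589 with array weights, 881 with adjustment over all probe sets, 361 at an adjusted p under 0.01 and 117 at 1.5-fold, and 639 (without FMR4 siRNA 24 h replicate 2) to 2991 (without FMR4 siRNA 6 h replicate 1) leaving out 1 array. The latter included 837 without FMR4 siRNA 6 h replicate 2, 928 and 908 without FMR4 pcDNA3.1 replicate 3 of 6 h or 24 h, and 962 without CTRL pcDNA3.1 24 h replicate 3. The cause of these shifts was not tested.

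Same-numbered arrays of the FMR4 siRNA cells had correlations of their deviations of 0.078, −0.266 and −0.058, and those of the CTRL siRNA cells −0.091, −0.013 and 0.083, so the numbers did not pair the arrays. With the replicate number as a block, 2367 genes were called over time (1746 and 621), 73 differed from CTRL siRNA (41 and 32) and 585 from the plasmid change.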
